A study of Homo sapiens with 6 samples.

Results

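Ferritin and the genes that move, sense and release iron were examined in 12Z cells, an established human endometriotic epithelial line. The 10 genes, FTL, FTH1, TFRC, SLC39A14, SLC11A2, SLC40A1, HMOX1, NCOA4, ACO1 and IREB2, were picked by name as ferritin subunits, iron transporters, iron sensors and the heme-degrading enzyme, and all 10 are among the 16279 genes of the deposited tables. Cells were left untreated (Control, n = 3, labelled NC) or received 10 ng/mL rhChem157S, recombinant active chemerin, for 48 h (n = 3, labelled rhChemerin). The sample titles call the 3 libraries of each group biological replicates. Levels are given as FPKM, the reads counted per gene scaled to gene length and to the total of the library.

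Iron enters most cells bound to transferrin and is kept inside ferritin, a shell of heavy and light chains in which the heavy chain oxidises the metal and the light chain helps to store it. Ferroportin is the known exporter, and heme oxygenase frees iron from heme. Cells tune these steps through the iron regulatory proteins, which bind a small hairpin, the iron-responsive element (IRE). Bound before the coding region, as in ferritin mRNA, they block translation, and bound after it, as in transferrin receptor mRNA, they protect the transcript from decay.

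The hairpins are shown because they mark which of the 10 genes have transcripts with the letters of an IRE. GENCODE release 29 transcripts (GRCh38) were searched on the sense strand for a C followed by any 5 bases, the loop CAGTGN and any 5 bases, and the 5 positions on either side of the loop were paired by A-T, G-C or G-T. Matches with all 5 pairs were found in FTL, FTH1 and SLC40A1 in the 5′ UTR and in TFRC, with 4 matches, in the 3′ UTR. In capitals are the C and the loop, and each run is 30 bases of transcript, 5′ to 3′.
FTL, chr19:48965335-48965364, plus strand: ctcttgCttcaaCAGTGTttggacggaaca
FTH1, chr11:61967573-61967602, minus strand: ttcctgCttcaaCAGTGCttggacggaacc
SLC40A1, chr2:189580660-189580689, minus strand: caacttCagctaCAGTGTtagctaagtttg
TFRC, chr3:196050978-196051007, minus strand: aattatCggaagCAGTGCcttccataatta
TFRC, chr3:196050574-196050603, minus strand: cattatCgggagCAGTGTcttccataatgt
TFRC, chr3:196050509-196050538, minus strand: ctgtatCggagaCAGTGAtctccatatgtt
TFRC, chr3:196050462-196050491, minus strand: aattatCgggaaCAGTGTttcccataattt
SLC11A2, chr12:50988268-50988297, minus strand: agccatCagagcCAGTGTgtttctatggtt

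The FTL and FTH1 runs share 26 of 30 positions, and the TFRC runs share 19 to 25 with each other. The SLC11A2 match, in the 3′ UTR of 5 annotated transcripts, had 4 of 5 pairs. Across 19677 protein-coding genes, 1.47% held a match with 5 pairs anywhere in a transcript and 0.183% held one in the 5′ UTR. With at least 4 pairs the share was 11.2%, and at that setting ACO1 and IREB2 also had 1 match each in the 3′ UTR. A match is a description of the letters and says nothing of protein binding in these cells.

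Between 35430881 and 38341643 reads were counted on genes per library. Library rhChem157S 3 had the lowest mean Pearson correlation to the other libraries of its group, at 0.968 (log2 of the normalized, depth-scaled counts over 13311 genes). Treated replicates 1 and 2 were close to it, at 0.972 and 0.980, and the Control libraries were at 0.986 to 0.989. Log2 fold changes of named genes, and medians of single gene lists, that moved by over 1.5 times without rhChem157S 3 are given both ways. Of the epithelial markers, KRT8 and KRT18 were abundant, at Control means of 820 and 608 FPKM, whereas CDH1 and EPCAM, which define epithelial contacts, were at 0.310 and 0.599 FPKM in Control and 0.129 and 0.196 FPKM in treated cells. The summed epithelial list ran from 1596 to 1866 FPKM in Control and 1760 to 1976 FPKM in treated libraries. The fibroblast collagen COL1A1 was at 1042 and 965 FPKM, and the summed fibroblast list ran from 1703 to 2198 FPKM in Control and from 1170 FPKM, in replicate 3, to 2312 FPKM in treated libraries. Macrophages handle much of the iron of the body, and the summed macrophage list ran from 122 to 172 FPKM in Control and 92.9 to 136 FPKM in treated libraries, nearly all of it CD68 and CD14, with PTPRC and CSF1R below 0.1 FPKM in every library. CD14 was at a mean of 43.2 FPKM in Control and 14.3 FPKM in treated cells, and the part of these markers in the results was not tested. Of 5 erythroid markers only HBB is in the table, at no more than 0.0449 FPKM.

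All 10 genes passed the filter on low counts. With edgeR's quasi-likelihood test, 0 of the 10 had an adjusted p under 0.05 (Benjamini-Hochberg over 13311 genes), where 0.0301% of all genes did. Without adjustment 1 of the 10, FTL, had p under 0.05, where 22.8% of all genes did. DESeq2, the tool the study used, called 1 of the 10, again FTL, against 10.6% of all genes. A call here rests on the adjusted p alone. The study also required an absolute log2 fold change above 1, which FTL, at -0.47 by DESeq2, does not reach. The groups did not overlap in normalized, depth-scaled counts for 1 of the 10, FTL, against 32.5% of all genes (2131 lower, as FTL, and 2201 higher). Of the 10, 4 had a higher and 6 a lower fitted mean with rhChem157S, and their median log2 fold change was -0.06, beside 0.01 for all genes tested. By count of calls, then, the 10 genes did not stand above the background, and most of what follows is the course of single genes and libraries. In bulk RNA, fewer cells of a type and less RNA per cell cannot be told apart.

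**Figure D1:**
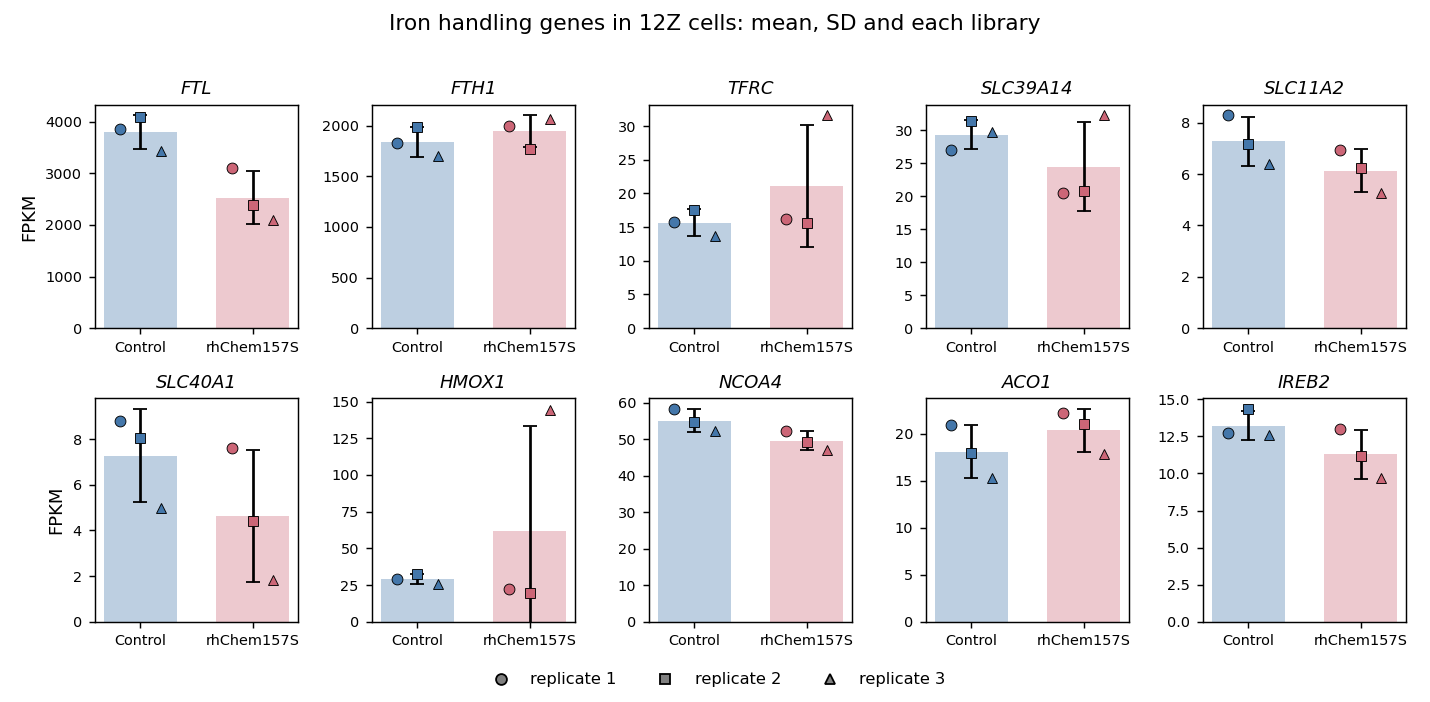
FPKM of the 10 iron handling genes in 12Z cells, with bars for the mean of 3 libraries, error bars for the SD and a symbol for each library. FTL was lower in all 3 rhChem157S libraries, and rhChem157S replicate 3 was highest for HMOX1 (144 FPKM) and TFRC (31.6 FPKM) and lowest for SLC40A1 (1.84 FPKM).

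FTL, on chromosome 19 from 48965301 to 48966878, encodes the ferritin light chain. It had the highest mean FPKM of all genes in Control cells and ranked 3 in treated cells. In the Control libraries 1 to 3 its level was 3866, 4084 and 3437 FPKM. In the rhChem157S libraries 1 to 3 it was 3106, 2379 and 2101 FPKM. All 3 treated values were under the 3 Control values, with the smallest gap between rhChem157S 1 and Control 3. It ranked 1 by FPKM in Control 1 and 2 and 3 in Control 3, where ACTB and B2M were above it, and ranked 3, 4 and 6 in the treated libraries. By read count, which favours long genes, it ranked only 7 to 11 in the Control libraries.

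FTL averaged 3796 ± 329 FPKM (SD, n = 3) without and 2529 ± 519 FPKM (SD, n = 3) with the protein. The log2 fold change was -0.46 (standard error, SE, 0.15, edgeR adjusted p = 0.142), or 0.725 of the Control level in normalized counts. In FPKM, which lack that normalization, the difference was larger, at -0.60 on log2(FPKM + 1). DESeq2 gave -0.47 with an adjusted p of 0.0207. The 2 tools thus put it on different sides of the threshold. Without rhChem157S replicate 3 the log2 fold change was -0.39 (edgeR adjusted p = 0.136), and without rhChem157S replicate 1 it was -0.61 (edgeR adjusted p = 0.0464), in a fit that called 6.24% of all genes. DESeq2 without rhChem157S replicate 1, where it called 20.0% of all genes, gave -0.60 with an adjusted p of 1.29e-05. The DESeq2 call was lost without Control replicate 1 (adjusted p = 0.138), Control replicate 2 (0.235) or rhChem157S replicate 2 (0.150), and kept without Control replicate 3 (0.0403) or rhChem157S replicate 3 (0.0258). Of the 19 genes with a mean above 1000 FPKM over all libraries, 4, FTL among them, had a lower fitted mean with rhChem157S. The median log2 fold change of the 19 was 0.32, or 0.21 without rhChem157S replicate 3.

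FTH1, on chromosome 11 from 61959718 to 61967660, encodes the ferritin heavy chain, the subunit with ferroxidase activity. It was at 1833, 1991 and 1702 FPKM in Control 1 to 3 and at 1998, 1770 and 2072 FPKM in rhChem157S 1 to 3. The groups overlapped, and the whole range over 6 libraries was narrow. The means were 1842 ± 145 (SD, n = 3) and 1947 ± 158 (SD, n = 3) FPKM, with a log2 fold change of 0.21 (SE 0.13, edgeR adjusted p = 0.352). The median over the 542 genes with a mean above 100 FPKM was 0.25. Without rhChem157S replicate 3 the value of FTH1 was 0.11 and that median 0.20. FTH1 shares 1267 of its 2030 exon bases with BEST1 on the opposite strand, and the strand setting of the counting is not given in the sources used here.

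The subunits can be set against each other within a library. The FTL to FTH1 ratio of FPKM was 2.11, 2.05 and 2.02 in Control 1 to 3. It was 1.55, 1.34 and 1.01 in rhChem157S 1 to 3. The Control ratios lay within a narrow band, with a mean of 2.06 ± 0.0459 (SD, n = 3), and all treated ratios were below them, with a mean of 1.30 ± 0.272 (SD, n = 3). A ratio within a library does not depend on the scaling between libraries. The ratio is a description and its difference between the groups was not tested. FTL alone already had groups that did not overlap, as had 32.5% of single genes, and no such share was computed for ratios. Taking both chains, ferritin transcripts made up 1.58% to 1.88% of all FPKM in Control libraries and 1.24% to 1.54% in treated libraries. As a share of all counted reads the groups overlapped, at 0.504% to 0.595% in Control and 0.420% to 0.511% in treated libraries.

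Both ferritin genes have close copies elsewhere in the genome, and reads that fit several places may be lost or split in counting. At 90% identity or more over at least 150 bases, FTL matched transcripts of 2 pseudogenes and FTH1 those of 14 pseudogenes, none of which the tables list. Their levels are uncertain to that extent, and the part of such reads in the ratio was not tested.

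**Figure D2:**
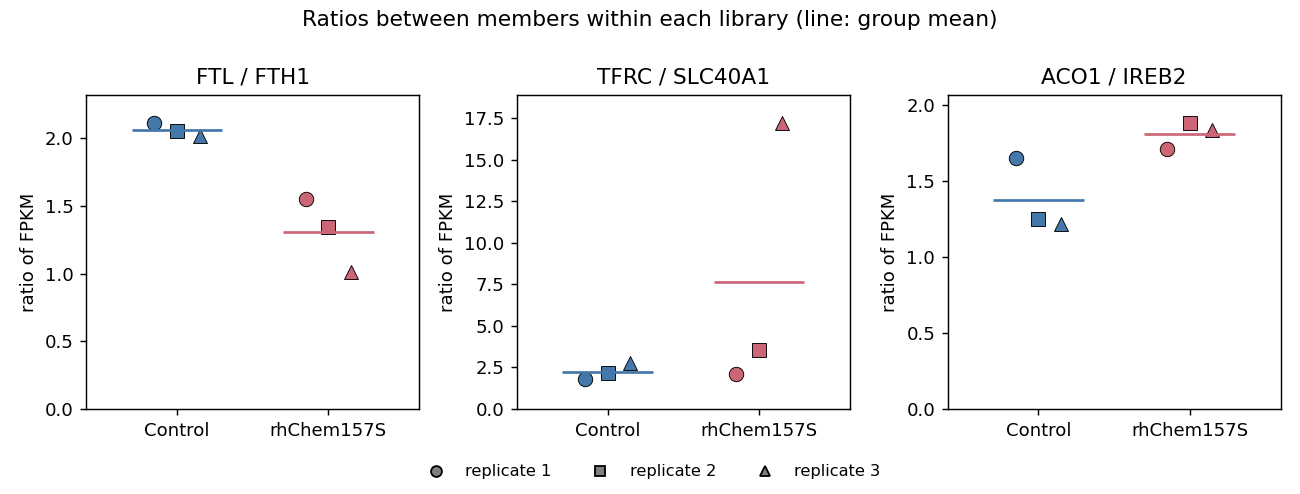
Ratios of FPKM between pairs of iron handling genes in each library, with symbols for replicates and a line for the group mean. FTL over FTH1 was 2.02 to 2.11 in Control and 1.01 to 1.55 in treated libraries, whereas TFRC over SLC40A1 overlapped between the groups and reached 17.2 in rhChem157S replicate 3.

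TFRC, on chromosome 3 from 196027183 to 196082189, encodes transferrin receptor 1, the main route of iron uptake in proliferating cells. Its levels were 15.8, 17.6 and 13.6 FPKM in Control 1 to 3 and 16.2, 15.6 and 31.6 FPKM in rhChem157S 1 to 3. Treated replicates 1 and 2 lay inside the Control range, and replicate 3 was above all others. The log2 fold change was 0.59 (SE 0.30, edgeR adjusted p = 0.290). Without rhChem157S replicate 3 it was 0.11 (SE 0.10, edgeR adjusted p = 0.570). DESeq2 without rhChem157S replicate 1 gave 0.77 with an adjusted p of 0.0456. That fit called 20.0% of all genes and keeps replicate 3, while treated replicate 2 lay inside the Control range.

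SLC39A14 on chromosome 8, from 22367249 to 22434129, encodes ZIP14, which takes up iron that is not bound to transferrin, as well as zinc and manganese. It was at 27.0, 31.3 and 29.6 FPKM in Control 1 to 3 and at 20.4, 20.7 and 32.2 FPKM in rhChem157S 1 to 3. Treated replicates 1 and 2 were below every Control library and replicate 3 was above every one. The log2 fold change over all libraries was -0.12 (SE 0.21, edgeR adjusted p = 0.764). Without rhChem157S replicate 3 it was -0.43 (SE 0.08, edgeR adjusted p = 0.0415), in a fit that called 3.07% of all genes, and DESeq2, calling 13.3%, gave an adjusted p of 0.000128. Without rhChem157S replicate 1 it was 0.020 (edgeR adjusted p = 0.955).

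SLC11A2, on chromosome 12 from 50979401 to 51028566, encodes DMT1, which carries ferrous iron across the apical and endosomal membranes. Its levels were 8.29, 7.17 and 6.39 FPKM in Control 1 to 3 and 6.92, 6.23 and 5.25 FPKM in rhChem157S 1 to 3. The groups overlapped, and the log2 fold change was -0.12 (SE 0.12, edgeR adjusted p = 0.563), or -0.07 without rhChem157S replicate 3. The table counts reads per gene, so transcripts with and without the hairpin of its 3′ UTR were not separated.

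SLC40A1, on chromosome 2 from 189560579 to 189583758, encodes ferroportin. It was the gene with the fewest reads of the 10, with 248 to 1126 per library. Its levels were 8.82, 8.06 and 4.97 FPKM in Control 1 to 3 and 7.63, 4.41 and 1.84 FPKM in rhChem157S 1 to 3. Control replicate 3 lay below treated replicate 1, so the groups overlapped, and treated replicate 3 was the lowest of all. The log2 fold change was -0.55 (SE 0.44, edgeR adjusted p = 0.469). It was -0.20 without rhChem157S replicate 3 and -1.09 without rhChem157S replicate 1, where DESeq2 gave -1.08 with an adjusted p of 0.0227. That DESeq2 fit called 20.0% of all genes.

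Import and export transcripts parted most in treated replicate 3. The ratio of TFRC to SLC40A1 was 1.79, 2.18 and 2.74 in Control 1 to 3 and 2.12, 3.54 and 17.2 in rhChem157S 1 to 3. Replicate 1 of the treated group fell inside the Control range.

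HMOX1, on chromosome 22 from 35380361 to 35394214, encodes heme oxygenase 1, the inducible enzyme that opens the heme ring and frees its iron. It was at 28.8, 32.4 and 25.7 FPKM in Control 1 to 3 and at 22.1, 19.9 and 144 FPKM in rhChem157S 1 to 3. A single library therefore carried the group mean, since treated replicates 1 and 2 were below all Control libraries and replicate 3 had 8396 reads against 1121 to 1850 in the other 5. The means were 28.98 ± 3.33 (SD, n = 3) and 62.1 ± 71.3 (SD, n = 3) FPKM. The fitted log2 fold change was 1.29 (SE 0.76, edgeR adjusted p = 0.339). Without rhChem157S replicate 3 the direction turned, to -0.38 (SE 0.11, edgeR adjusted p = 0.0943), and DESeq2 on the same 5 libraries gave -0.38 with an adjusted p of 0.0338. That DESeq2 fit called 13.3% of all genes.

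NCOA4, on chromosome 10 from 46005088 to 46030714, encodes the receptor that delivers ferritin to the lysosome for breakdown. It was at 58.2, 54.8 and 52.1 FPKM in Control 1 to 3 and 52.2, 49.3 and 47.0 FPKM in rhChem157S 1 to 3. The log2 fold change was -0.02 (SE 0.08, edgeR adjusted p = 0.874), and the groups overlapped. NCOA4 also has 2 pseudogenes that match it at this identity.

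ACO1 and IREB2 encode the iron regulatory proteins themselves. ACO1, on chromosome 9 from 32384603 to 32454769, makes IRP1, which is a cytosolic aconitase when it holds an iron-sulfur cluster. Its levels were 20.9, 17.9 and 15.3 FPKM in Control 1 to 3 and 22.2, 21.0 and 17.8 FPKM in rhChem157S 1 to 3. The groups overlapped, with a log2 fold change of 0.30 (SE 0.13, edgeR adjusted p = 0.223).

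IREB2, on chromosome 15 from 78437431 to 78501456, makes IRP2, which is degraded when iron is plentiful. It was at 12.7, 14.3 and 12.6 FPKM in Control 1 to 3 and 13.01, 11.2 and 9.70 FPKM in rhChem157S 1 to 3, with overlapping groups. The log2 fold change was -0.10 (SE 0.10, edgeR adjusted p = 0.555), or -0.05 without rhChem157S replicate 3. The ACO1 to IREB2 ratio of FPKM was 1.65, 1.25 and 1.22 in Control 1 to 3 and 1.71, 1.88 and 1.84 in rhChem157S 1 to 3. All treated ratios were above all Control ratios, with Control 1 close to the treated range. The means were 1.37 ± 0.241 (SD, n = 3) in Control and 1.81 ± 0.0882 (SD, n = 3) in treated libraries. This ratio too is a description, and its difference between the groups was not tested. Among single genes, 32.5% had groups that did not overlap in normalized, depth-scaled counts, and no such share was computed for ratios.

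By level per gene length, the order in Control cells was FTL, FTH1, NCOA4, SLC39A14 with HMOX1, ACO1, TFRC, IREB2, and SLC11A2 with SLC40A1. SLC39A14 and HMOX1, at 29.3 ± 2.16 and 28.98 ± 3.33 FPKM, did not differ beyond their SD (n = 3), and neither did SLC11A2 and SLC40A1, at 7.29 ± 0.952 and 7.28 ± 2.04 FPKM. The Control libraries of ACO1 and TFRC, at 18.1 ± 2.80 and 15.7 ± 1.99 FPKM, overlapped, as did those of TFRC and IREB2, the latter at 13.2 ± 0.974 FPKM. Treated replicate 3 was the library farthest from the Control mean for 7 of the 10 genes, and the same held for 59.9% of all genes tested.

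**Figure D3:**
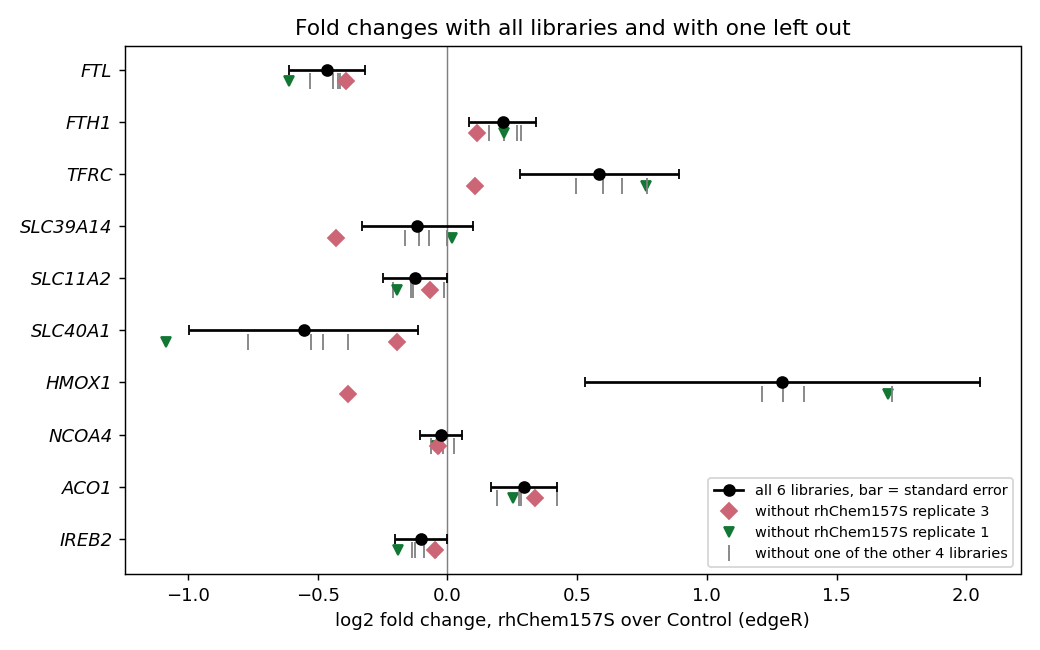
Log2 fold change of each iron handling gene with all 6 libraries (black, bar for the standard error) and with 1 library left out (edgeR). HMOX1 moved from 1.29 to -0.38 and TFRC from 0.59 to 0.11 without rhChem157S replicate 3, whereas FTL stayed between -0.61 and -0.39.

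The wider iron machinery was read from 6 lists with 110 genes in all, of which 98 were tested. Of these 98, 55 had a higher and 43 a lower fitted mean, with a median log2 fold change of 0.03. With edgeR 0 had an adjusted p under 0.05, and 20 of the 98 had p under 0.05 without adjustment, where 22.8% of all genes did. DESeq2 called 9, all of them lower with rhChem157S, where it called 6.0% of all genes lower and 4.58% higher, and the 9 are 9.18% of those tested. The groups did not overlap in 31 of the 98, or 31.6%, close to the 32.5% of all genes.

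Transport held most of these calls. Of 22 tested iron and heme transporters and reductases, 10 were higher and 12 lower in fitted mean (median -0.07). DESeq2 called 5, all lower, and edgeR called 0. Of all genes, DESeq2 called 6.0% lower, and the difference from that share was not tested. SLC46A1, which carries heme and folate into cells, was at 3.86, 3.75 and 4.43 FPKM in Control 1 to 3 and 2.42, 2.11 and 1.62 FPKM in rhChem157S 1 to 3. Its log2 fold change was -0.85 (SE 0.14, edgeR adjusted p = 0.0707), with an adjusted p of 4.50e-05 by DESeq2. SLC48A1, which moves heme out of endosomes and lysosomes, was at 6.69, 6.67 and 5.33 FPKM and then 4.08, 2.78 and 1.71 FPKM, a log2 fold change of -1.01 (adjusted p = 0.109 by edgeR and 0.00529 by DESeq2). SLC46A1 and SLC48A1 were thus lower in every treated library than in every Control library. Both are named because DESeq2 called them. Of the 13311 genes tested, 2131 had a lower treated group without overlap in normalized, depth-scaled counts. FLVCR2, on the same list and not called, had overlapping groups, and heme import as a class was not tested.

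SLC22A17, the receptor for lipocalin 2, was at 6.70, 6.55 and 7.79 FPKM in Control 1 to 3 and at 2.94, 3.79 and 2.19 FPKM in rhChem157S 1 to 3. Its log2 fold change was -1.11 (adjusted p = 0.0752 by edgeR and 4.29e-05 by DESeq2). The zinc and iron carrier SLC39A8 and the zinc carrier SLC39A4 had log2 fold changes of -0.40 and -0.70, with DESeq2 adjusted p of 0.0456 and 0.0208 and edgeR adjusted p of 0.134 and 0.126. The groups did not overlap for any of the 5 transporters, so leaving out 1 library could not turn their direction. Without rhChem157S replicate 3 their log2 fold changes were -0.36 to -0.97. The genes with the smallest p among those higher were STEAP1, a metalloreductase relative with 11 to 143 reads per library, at 1.56 (edgeR adjusted p = 0.214), and SLC25A37, which brings iron into mitochondria, at 0.26 (edgeR adjusted p = 0.232). With treated replicate 3 left out they were at 0.89 and 0.14. The genes TF, HEPH and CP had at most 13 reads in any library and were not tested.

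Of 16 tested genes for iron sensing, iron chaperones and the hepcidin axis, 9 were higher and 7 lower (median 0.03), and DESeq2 called 2. With treated replicate 3 left out the median was -0.02. NEO1, a receptor that binds hemojuvelin, had a log2 fold change of -0.39 (adjusted p = 0.123 by edgeR and 0.0309 by DESeq2), and PCBP3, of the poly(C)-binding family, had -0.92 (adjusted p = 0.171 by edgeR and 0.0486 by DESeq2). PCBP1, the iron chaperone that loads ferritin, was at 192 to 222 FPKM in Control and 210 to 231 FPKM in treated libraries, with overlapping groups. Its log2 fold change was 0.23, and that of SKP1, a part of the ligase that degrades IRP2, was 0.22 (adjusted p = 0.267 and 0.155, edgeR). PCBP3 moved to -0.61 and PCBP1 to 0.13 without rhChem157S replicate 3.

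Of 14 tested heme synthesis and degradation genes, 9 were higher and 5 lower (median 0.03), and 0 were called by edgeR or DESeq2. With treated replicate 3 left out the median was 0.06. UROD and UROS, neighbouring steps of heme synthesis, had log2 fold changes of 0.26 and -0.30 (adjusted p = 0.137 and 0.165, edgeR), each with groups that did not overlap. PGRMC1, a heme-binding membrane protein, had 0.42 and FECH, which inserts the iron into heme, had -0.16 (adjusted p = 0.137 and 0.437, edgeR), or 0.27 and -0.05 without rhChem157S replicate 3.

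Of 26 tested iron-sulfur cluster genes, 16 were higher and 10 lower (median 0.09, or 0.02 without rhChem157S replicate 3). DESeq2 called FDXR, the ferredoxin reductase, which was at 20.8, 28.7 and 24.0 FPKM in Control 1 to 3 and 18.7, 16.3 and 11.1 FPKM in rhChem157S 1 to 3. Its log2 fold change was -0.55 (adjusted p = 0.146 by edgeR and 0.0497 by DESeq2). The cytosolic assembly genes MMS19, NUBP1 and CIAO3 had 0.21, 0.29 and -0.22, with edgeR adjusted p of 0.157, 0.187 and 0.204.

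Of 12 genes of the ferritinophagy machinery, 7 were higher and 5 lower (median 0.00), with 0 called by edgeR or DESeq2. With treated replicate 3 left out the median was 0.02. TAX1BP1, an adaptor in the lysosomal delivery of ferritin, and ATG7, which activates the autophagy conjugation system, had 0.20 and 0.31 (adjusted p = 0.183 and 0.178, edgeR). GABARAPL1, an autophagosome protein, went from 45.6, 41.3 and 38.03 FPKM in Control 1 to 3 to 41.2, 27.1 and 13.3 FPKM in rhChem157S 1 to 3, with overlapping groups (log2 fold change -0.51, adjusted p = 0.369, edgeR), and with treated replicate 3 left out the log2 fold change was -0.21. HERC2, the ligase that turns over NCOA4, had -0.09 (edgeR adjusted p = 0.533).

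Ferroptosis is a death by iron-driven lipid oxidation. Of 9 tested guards and drivers, 4 were higher and 5 lower (median -0.07), and 1 was called by DESeq2. Without rhChem157S replicate 3 the median was -0.19, and 1 of the 9 was higher. GCH1, which makes the antioxidant tetrahydrobiopterin, was at 7.64, 8.28 and 9.05 FPKM in Control 1 to 3 and 5.02, 4.56 and 3.61 FPKM in rhChem157S 1 to 3. Its log2 fold change was -0.80 (SE 0.12), with adjusted p of 0.0692 by edgeR and 1.05e-05 by DESeq2. LPCAT3, a lipid remodelling enzyme, had -0.39 (edgeR adjusted p = 0.219). The cystine carrier SLC7A11 was at 2.14, 2.45 and 2.16 FPKM in Control 1 to 3 and at 1.72, 2.04 and 3.84 FPKM in rhChem157S 1 to 3. As with HMOX1, treated replicates 1 and 2 lay below the Control libraries and replicate 3 above them. Its partner chain SLC3A2 was at 30.1, 29.3 and 48.3 FPKM in rhChem157S 1 to 3, against 31.8 to 39.1 FPKM in Control. With treated replicate 3 left out, the log2 fold change of SLC7A11 moved from 0.33 to -0.18 and that of SLC3A2 from 0.15 to -0.19.

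**Figure D4:**
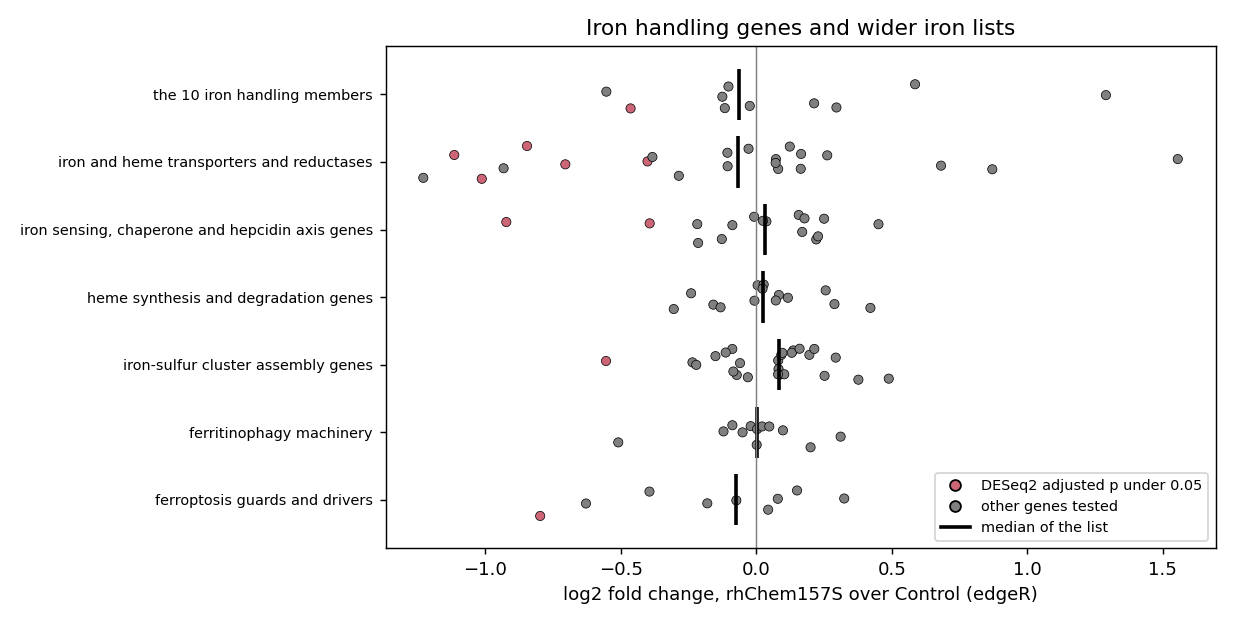
Log2 fold change (edgeR) of the 10 iron handling genes and of the tested genes of 6 wider iron lists, with a line for each median and red points for genes that DESeq2 called. The medians lie between -0.07 and 0.09, and the 10 red points, FTL among them, are all on the lower side.

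The genes whose course over the 6 libraries was most like FTL were FLT3LG, PIR, TXNRD1, LYST and CDKN2B, with Pearson correlations of log2 depth-scaled counts of 0.994 to 0.998. TXNRD1, the cytosolic thioredoxin reductase, had a log2 fold change of -0.46. These were the highest of 13310 correlations over libraries that share the group difference, and are given as a description.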

How the data were processed

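RNA from 12Z cells was sequenced as 150 bp paired-end reads. Per the methods and processing notes of the authors, reads were cleaned with fastp, mapped by HISAT2 onto GRCh38.p13 and assigned to genes by HTSeq. Tool versions, the strand setting and the annotation release are not given in the sources used here. The deposited counts are not normalized. The deposited FPKM, calculated by the authors, equalled count over total and a fixed gene length within 1% in 100% of values, over 10865 genes with at least 100 counts in every library.

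Tests on the counts used edgeR 4.0.16 under R 4.3.3 (TMM, filterByExpr, glmQLFit, glmQLFTest), with Benjamini-Hochberg adjustment over 13311 genes. TMM is not part of the FPKM. The alternatives comprised other scalings and filters, legacy=FALSE, DESeq2 1.42.0, a block for replicate number, each library left out in turn, and limma 3.58.1 with a pseudocount of 1 or 0.1 added to FPKM before log2. DESeq2 with each library left out was added after seeing the data. The tests were tried on simulated counts with larger changes than those of the 10 genes and with no outlying library. How well they find changes of the size seen here was not tested. With 3 libraries against 3, an exact permutation test cannot go below p = 0.10, and none was used. Close copies were sought with blastn 2.17.0. Positions come from GENCODE release 29. The smallest count of the 10 genes, 248, has a counting error of 6.35%.

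The 10 genes and the lists were chosen with earlier results of these data known. Named from the lists are genes called by edgeR or DESeq2 and the 2 with the smallest edgeR p in each direction.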

Additional observations from a re-analysis of the deposited data

How the results depend on the processing

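Among the 210 values of single genes under the alternatives, 194 kept direction and side of the threshold, 9 passed it newly in the same direction and 7 turned direction, of which 1, HMOX1 with DESeq2 without rhChem157S replicate 3, also passed it (adjusted p = 0.0338). No scaling, filter or pseudocount turned a direction, although library size alone moved the median of all genes to -0.12 and that of the 10 to -0.19, as did limma on log2(FPKM + 1), at -0.18, and on log2(FPKM + 0.1), at -0.19. HMOX1 turned without rhChem157S replicate 3 (-0.38 with edgeR and with DESeq2), NCOA4 without Control replicate 1 (0.027 and 0.022), and SLC39A14 without rhChem157S replicate 1 (0.020 and 0.025) and, with DESeq2, replicate 2 (0.0028). With 1 library left out, edgeR gave -0.38 to 1.71 for HMOX1, -0.062 to 0.027 for NCOA4 and -0.43 to 0.020 for SLC39A14. HMOX1 was 0.47 on both FPKM scales and 0.53 with the block.

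The count of genes called was 4 in the edgeR test, 1407 with DESeq2, 17 with no filter, 15 with legacy=FALSE, 179 with limma on log2(FPKM + 1) and 23 on log2(FPKM + 0.1). With 1 library left out it ran from 0 to 844 with edgeR and from 300 to 2704 with DESeq2 (761 without Control replicate 1, 585 without Control replicate 3 and 658 without rhChem157S replicate 2), and the cause was not tested. Without rhChem157S replicate 3 edgeR called 415 and DESeq2 1804, and without rhChem157S replicate 1 they called 844 and 2704. Of the 10 genes, 0 were called by edgeR and 1 by DESeq2. With 1 library left out 0 to 1 were called by edgeR and 0 to 3 by DESeq2, the 3 being FTL, TFRC and SLC40A1 without rhChem157S replicate 1, and FTL, HMOX1 and SLC39A14 without rhChem157S replicate 3. Of all genes, DESeq2 called 20.0% without rhChem157S replicate 1 and 13.3% without rhChem157S replicate 3. The shares of edgeR were 6.24% and 3.07%. The adjusted p of FTL ranged from 1.29e-05 to 0.415 over its 21 alternatives, and its log2 fold change from -0.61 to -0.39.

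With the replicate number as a block 1 gene was called and 0 of the 10. Same-numbered libraries had correlations of their deviations of 0.241, 0.00147 and 0.247, and differently numbered ones of -0.306 to 0.106. Replicates 1 and 3 thus correlated most with their own number, and replicate 2 did not. The titles do not say that the numbers pair libraries, and the main test did not use them. With the block SLC40A1 was at -0.69 (edgeR adjusted p = 0.119). Whether the libraries are paired was not tested.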
